A study of Rattus norvegicus with 6 samples.

Results

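Transcripts of 7 rat genes of the secretory granule were followed in GH3 cells, a rat pituitary tumour line that makes growth hormone and prolactin, with and without thyrotropin-releasing hormone (TRH). Of these genes, 4 encode granins: Chga (ENSRNOG00000008658), Chgb (ENSRNOG00000021269), Scg2 (ENSRNOG00000015055) and Vgf (ENSRNOG00000001416). The other 3 encode enzymes that process prohormones: Pcsk1 (ENSRNOG00000011107), Pcsk2 (ENSRNOG00000005438) and Pam (ENSRNOG00000033280). They were taken by Ensembl gene identifier from a table of 18413 genes. All 7 identifiers were found, and all 7 passed the filter on low counts, as did 14050 genes in all. The deposited tables carry no gene symbols, so each symbol below rests on the list of identifiers from which the genes were taken.

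The study sequenced 6 libraries of GH3 cells labelled wild type, 3 untreated (control) and 3 given 100 nM TRH, to see which messenger RNAs change with the hormone. All cells were grown in F10 medium with horse and fetal bovine serum. The sources used here do not give the length of the treatment, and nothing in the labels says that the libraries of a group came from separate cultures. P-values therefore reflect the spread among these libraries alone, and that spread may be technical. GH3 is 1 tumour line, so the libraries show nothing of other pituitary cells. Pituitary marker genes and the wider lists of granule and processing genes drawn up by symbol were not analysed here, because no table used here pairs symbols with the identifiers. The line's identity was likewise not checked.

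Granins are acidic proteins that gather in the trans-Golgi network and enter dense-core granules together with peptide hormones. Many are themselves cut at pairs of basic residues, by the prohormone convertases that Pcsk1 and Pcsk2 encode. Peptidylglycine alpha-amidating monooxygenase, encoded by Pam, then converts a C-terminal glycine into the amide that many peptide hormones carry. Growth hormone and prolactin, the main products of GH3 cells, are stored in granules but need no convertase cleavage to become active. TRH acts on pituitary cells through a receptor coupled to Gq, phospholipase C and calcium, and releases prolactin from granules.

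Library depth ran from 43504159 to 52134239 counts. The 7 genes together took between 0.302% and 0.363% of the counts in the 3 control libraries and between 0.284% and 0.300% in the 3 TRH libraries. The highest share belonged to control replicate 1. After TMM scaling, in CPM (counts per 1000000), the 7 genes summed to between 2976 and 3625 in controls and between 2923 and 2999 with TRH, so the groups overlapped. These sums are set mostly by Chgb, Scg2 and Pam. Control replicate 1 and TRH replicate 3 stood apart from the other libraries in a trend with gene length. Tested genes were ranked by length into 5 groups of like size, and the median log2 deviation of the longest group (3866 bases or more) minus that of the shortest (1175 bases or less) was taken in each library. It was 0.37 in control replicate 1, -0.44 in TRH replicate 3 and -0.17 to 0.15 in the others. The members' deposited lengths range from 2409 bases (Scg2) to 5178 bases (Chga), so values beside this trend are given below.

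The transcripts covered more than 3 orders of magnitude. TPM values (transcripts per 1000000) divide counts by gene length, so comparing genes by TPM rests on the deposited lengths. The annotation behind those lengths is not given. Chgb was the most abundant member at 744 ± 153 TPM (SD over the 6 libraries), followed by Pam at 425 ± 32.7 TPM, Scg2 at 284 ± 53.3 TPM and Vgf at 100.4 ± 9.90 TPM. Chgb ranked 184th among the 18413 genes by mean TPM, Pam 383rd, Scg2 591st and Vgf 1734th. The convertase transcripts were far scarcer, with Pcsk2 at 3.20 ± 0.479 TPM and Pcsk1 at 0.355 ± 0.0856 TPM. Chga, the founding chromogranin, lay between them at 0.802 ± 0.496 TPM.

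The order of levels was the same in all 6 libraries except at its lower end. Chgb exceeded Pam in 6 of 6 libraries, by 1.42 to 2.27 times. Pam exceeded Scg2 in 6 of 6 libraries, by 1.18 to 1.73 times, although the ranges of the 2 genes over libraries overlapped. Chga exceeded Pcsk1 in 5 of 6 libraries, and their ranges overlapped, so these neighbours were not separated beyond their spread. Vgf stood 28.9 to 36.4 times above Pcsk2, the widest step between neighbours.

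**Figure D1:**
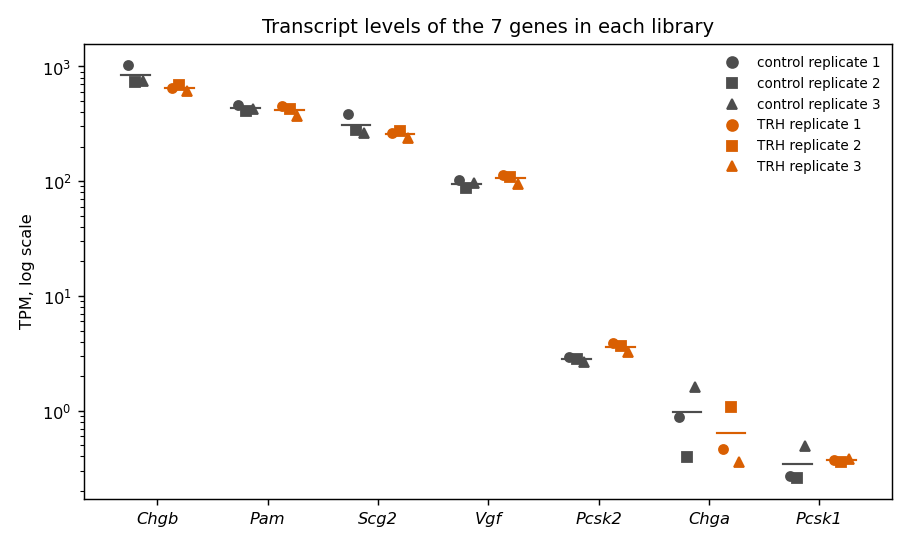
TPM of each gene on a log axis, with 1 symbol per library and a horizontal line at the mean of each group of 3. Chgb, Pam, Scg2 and Vgf lie between 86.5 and 1037 TPM in every library, whereas Pcsk2, Chga and Pcsk1 stay between 0.258 and 3.87 TPM.

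The change with TRH was tested in edgeR's quasi-likelihood fit over all 14050 genes, with p-values adjusted over all of them by the Benjamini-Hochberg method. None of the 7 genes passed the adjusted threshold of 0.05, and 0 of 14050 genes did (0%). As an alternative, the Wald test of DESeq2 was run, which called 0 of the 7 as well and 106 genes in all (0.835% of the genes for which it gave an adjusted p). At an unadjusted p under 0.05 in edgeR there were 3 of the 7, Pcsk2, Vgf and Chgb, beside 1263 of 14050 genes (8.99%). Pcsk2 and Vgf were higher with TRH, as were 2.04% of all genes at that p. Chgb was lower, as were 6.95%. The control and TRH values in CPM did not overlap for these same 3 genes, against 17% of all genes (6.8% higher and 10.2% lower with TRH).

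Fitted changes went both ways, with 4 members higher with TRH and 3 lower. Their median log2 fold change was 0.01, beside -0.0040 over all genes tested, and the median absolute log2 fold change was 0.22 against 0.16. With 7 genes these figures describe the list and set it apart from nothing.

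**Figure D2:**
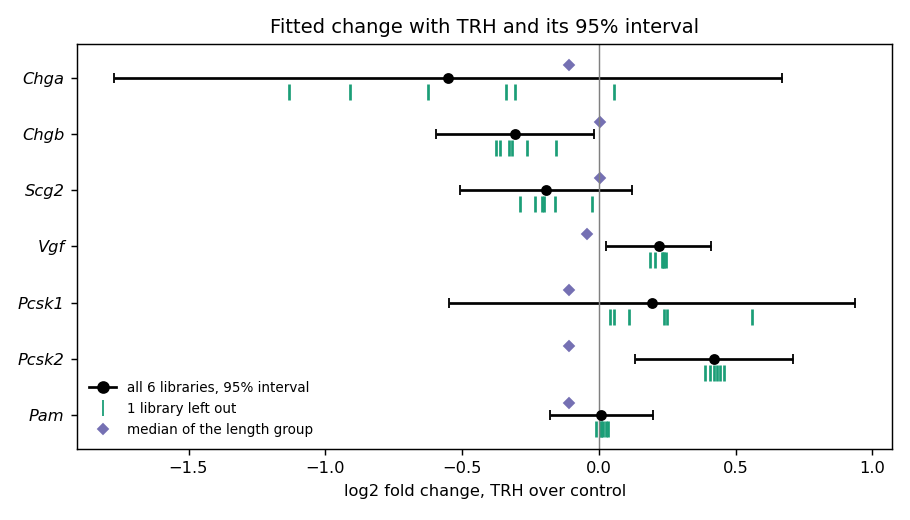
Log2 fold change, TRH over control, fitted with all 6 libraries (black, with 95% interval), with each library left out in turn (green) and as the median of all genes in the same length group (purple). The intervals of Chgb, Vgf and Pcsk2 lie to 1 side of 0 before adjustment, and that of Chga is the widest, from -1.77 to 0.67.

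Among the granins, Scg2 and Vgf are textbook targets of cAMP response element binding protein, a factor that calcium and protein kinases activate. Promoter sequences were therefore set beside their values. RefSeq (GRCr8) gave a window from 250 bases before to 50 bases after the gene start for 5 of the 7 members, Chgb, Scg2, Vgf, Pcsk2 and Pam. The build behind the deposited counts is not given, so these windows describe the genes and not the reads. Both strands were searched for the cAMP response element TGACGTCA, its core TGACG (reverse CGTCA, which the full element also contains) and the AP-1 site TGANTCA. The full element was present in 1.83% of 33469 promoters of this length, the core in 21.2% and the AP-1 site in 7.33%.

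The windows of 3 granins are shown, 5′ to 3′ along the strand of the gene. Scg2 and Vgf hold the full element. Vgf was fitted higher with TRH and Scg2, like Chgb, lower, but the 95% interval of Scg2 (-0.51 to 0.12) spans 0. None of these changes passed adjustment, and a link between the element and the change was not tested. Capitals mark motif matches. The Scg2 window is chr9:88256817-88257116 (minus strand), the Vgf window chr12:25276971-25277270 (minus strand) and the Chgb window chr3:140496462-140496761 (plus strand).
Scg2: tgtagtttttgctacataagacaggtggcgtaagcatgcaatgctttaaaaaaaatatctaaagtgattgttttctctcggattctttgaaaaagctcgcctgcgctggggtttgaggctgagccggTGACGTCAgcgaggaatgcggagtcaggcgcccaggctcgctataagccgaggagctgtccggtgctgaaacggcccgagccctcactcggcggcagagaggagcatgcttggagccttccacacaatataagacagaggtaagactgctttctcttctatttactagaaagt
Vgf: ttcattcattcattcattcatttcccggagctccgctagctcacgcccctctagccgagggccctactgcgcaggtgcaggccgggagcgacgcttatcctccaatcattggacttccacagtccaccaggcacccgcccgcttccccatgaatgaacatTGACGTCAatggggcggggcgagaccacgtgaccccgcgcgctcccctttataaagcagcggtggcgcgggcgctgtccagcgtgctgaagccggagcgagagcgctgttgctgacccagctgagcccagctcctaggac
Chgb: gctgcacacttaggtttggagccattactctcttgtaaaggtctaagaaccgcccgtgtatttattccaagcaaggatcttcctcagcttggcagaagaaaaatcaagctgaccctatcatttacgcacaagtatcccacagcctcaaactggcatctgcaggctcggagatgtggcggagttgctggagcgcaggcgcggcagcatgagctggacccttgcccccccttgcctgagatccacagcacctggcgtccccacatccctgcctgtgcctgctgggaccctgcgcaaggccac

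The full element begins at position -123 from the gene start in Scg2 and at -90 in Vgf. The Chgb window held none of the 3 motifs as spelled. The window of Pam, not printed, held the core TGACG at position -105 and not the full element. The AP-1 letters were in none of the 5 windows. A match of letters is no evidence that a factor binds there, and the absence of one says nothing of other sites.

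Vgf, whose product is a granin-like precursor of several neuropeptides, was higher with TRH. It had 6886, 6653 and 7200 counts in control replicates 1 to 3 and 9606, 7934 and 7635 counts in TRH replicates 1 to 3. Scaled for depth, these were 158, 146 and 153 CPM against 185, 175 and 172 CPM. Every TRH library lay above every control, and TRH replicate 1 was the highest. The group means were 152 ± 6.25 and 177 ± 7.08 CPM (SD, n = 3 each). The fitted log2 fold change of 0.22 (SE 0.08, 95% interval 0.03 to 0.41) is a fold of 1.16. Its unadjusted p in edgeR was 0.0298 and its adjusted p 0.512. When single libraries were left out, the log2 fold change lay between 0.19 and 0.25. The unadjusted p in edgeR was under 0.05 in 3 of those fits and above it in the others. With a replicate block it was 0.0762. On the TPM scale the groups overlapped, because TRH replicate 3, at 94.6 TPM, lay below 2 of the 3 controls. Limma on log2(TPM + 1) gave a log2 fold change of 0.15 and an unadjusted p of 0.187. With offsets for gene length the edgeR value was 0.27 (unadjusted p = 0.0057, adjusted p = 0.395).

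Chgb, the most abundant granin here and like Chga a chromogranin, was lower with TRH. Its values were 1547, 1194 and 1133 CPM in control replicates 1 to 3 and 1007, 1058 and 1067 CPM in TRH replicates 1 to 3. All 3 TRH libraries lay below all controls, but control replicate 1 was far above the other 2 controls, which stood closer to the TRH libraries than to it. The means were 1291 ± 223 and 1044 ± 32.4 CPM (SD, n = 3 each). The fitted log2 fold change was -0.31 with SE 0.13 and a 95% interval from -0.60 to -0.02. Its unadjusted p in edgeR was 0.0396 and its adjusted p 0.536. Without control replicate 1 it was -0.16 (unadjusted p = 0.0718), and without the other libraries in turn it lay between -0.38 and -0.26. With length offsets it was -0.26 (unadjusted p = 0.0508). Limma on log2(TPM + 1) gave -0.36 (unadjusted p = 0.0360, adjusted p = 0.575). On log2(TPM + 0.1) it also gave -0.36 (unadjusted p = 0.0352, adjusted p = 0.590). The length group of Chgb, between 1852 and 2614 bases, had a median of 0.0046.

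Scg2, which encodes secretogranin II, the precursor of secretoneurin, resembled Chgb in its high control replicate 1. It stood at 552, 426 and 378 CPM in control replicates 1 to 3 and at 387, 403 and 395 CPM in TRH replicates 1 to 3. Unlike in Chgb, control replicate 3 was the lowest of all 6 and the groups overlapped. The fit gave a log2 fold change of -0.19 with SE 0.14, a 95% interval from -0.51 to 0.12 and an adjusted p of 0.655 in edgeR. Without control replicate 1 it was -0.02, and with length offsets -0.15 (unadjusted p in edgeR 0.254). Expressed as deviations from each gene's own mean log2 CPM, Chgb and Scg2 differed by a root mean square of 0.070 over the 6 libraries, the smallest of the 21 pairs of members. The next pair was Vgf and Pam at 0.11.

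Within a library, the ratio of 2 transcripts does not depend on how libraries are scaled to each other. The ratio of Vgf to Chgb in TPM was 0.0980, 0.117 and 0.130 in control replicates 1 to 3 and 0.177, 0.159 and 0.155 in TRH replicates 1 to 3. All TRH libraries lay above all controls, with means of 0.115 ± 0.0161 and 0.163 ± 0.0118 (SD, n = 3 each). In CPM, every TRH library lay above every control for Vgf and below every control for Chgb. The separation of the ratio follows from those values and adds no evidence to them. The pair was chosen after its values were seen, so the ratio is a description and was not tested. The ratio of Chgb to Scg2 ran from 2.67 to 2.85 in controls and from 2.47 to 2.57 with TRH, likewise without overlap and likewise not tested. The share of all gene pairs whose ratios do not overlap was not computed. Among single genes tested, 17% did not overlap in CPM, a different measure that gives no reference for the ratios.

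**Figure D3:**
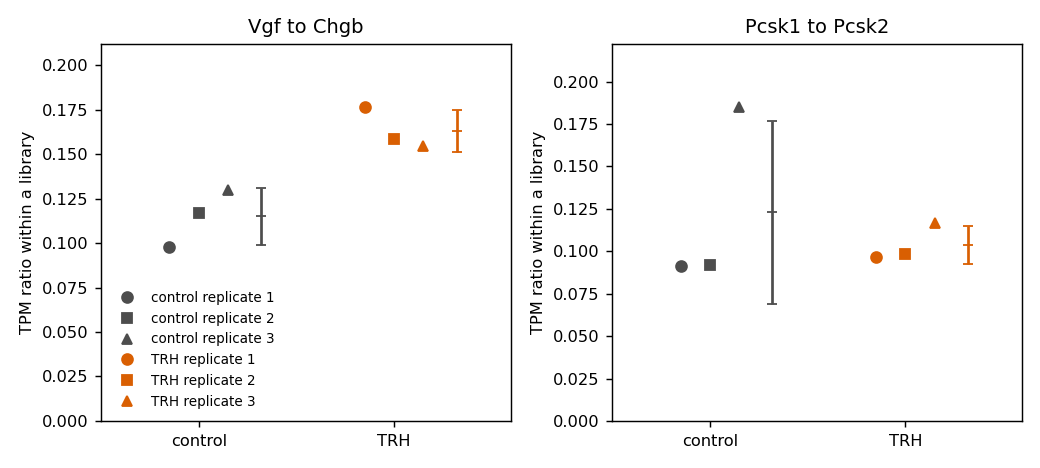
Ratios of TPM within each library, Vgf to Chgb on the left and Pcsk1 to Pcsk2 on the right, with 1 symbol per library and the mean with SD of 3 beside it. The Vgf to Chgb ratio is 0.155 or more in each TRH library and 0.130 or less in each control, which follows from the CPM values of Vgf and Chgb. The Pcsk1 to Pcsk2 ratio is raised only in control replicate 3 (0.185).

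Chga, which encodes chromogranin A, the precursor of vasostatin and pancreastatin, varied most among the members. It was counted 118, 60 and 236 times in control replicates 1 to 3 and 76, 156 and 57 times in TRH replicates 1 to 3. Control replicate 3 and TRH replicate 2 were high, the rest were low, and the groups overlapped widely. The 95% Poisson intervals, which cover counting error only, were 207 to 268 counts for control replicate 3 and 45.8 to 77.2 for control replicate 2. These are the highest and the lowest of the controls. The highest library held 3.92 times the CPM of the lowest. Among 1806 other genes within 2-fold of its mean CPM, the median of that ratio was 1.83, and 96.3% had a smaller one.

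The fitted change of Chga had the widest interval of the 7 genes. The log2 estimate was -0.55 with SE 0.53, a 95% interval from -1.77 to 0.67 and an adjusted p of 0.723 in edgeR. Leaving out control replicate 3 turned it to 0.06, and leaving out TRH replicate 2 took it to -1.13. Without both of these libraries, a choice made after seeing the values, it was -0.52. The interval reached from 0.293-fold to 1.59-fold of control, and its upper end moved to 2.44-fold without control replicate 3 and to 2.02-fold without TRH replicate 1. Over the fit of all libraries and the 6 fits without 1 of them, a 2-fold fall lay within the interval in each, and a 2-fold rise in those 2. With length offsets the log2 fold change of Chga was -0.41 (unadjusted p in edgeR 0.406).

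**Figure D4:**
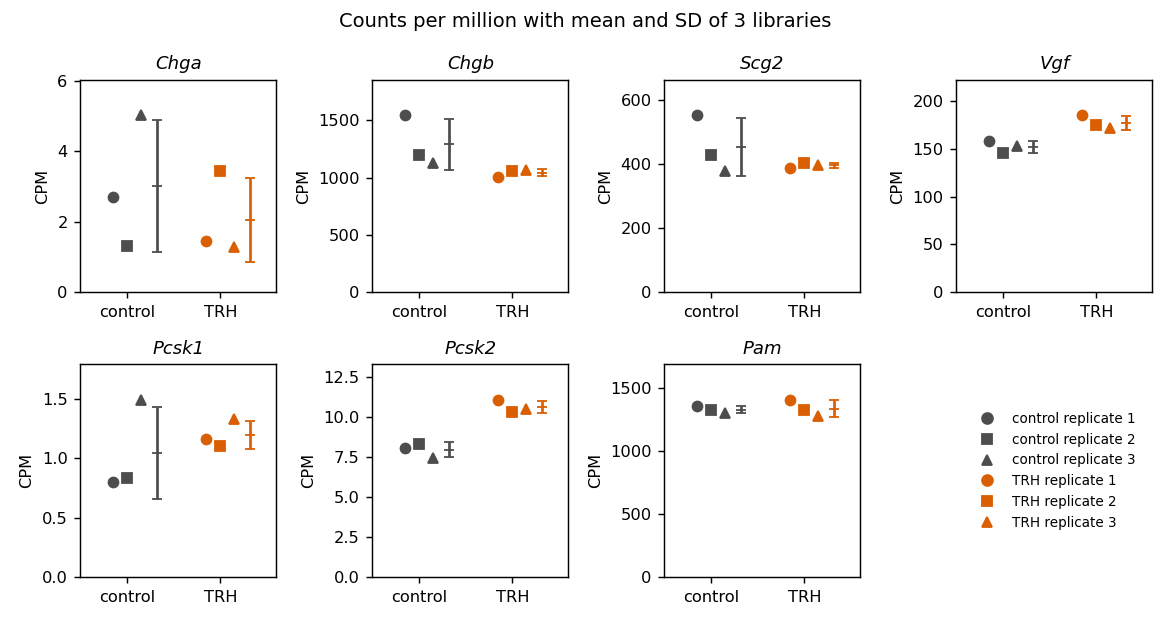
CPM of each gene by group, with 1 symbol per library and the mean with SD of 3 libraries beside it, on axes that start at 0. Pcsk2, Vgf and Chgb show no overlap between groups, Chgb and Scg2 share a high control replicate 1, and Chga spreads from 1.28 to 5.02 CPM without regard to group.

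Of the processing enzymes, Pcsk2 had the smallest p of all 7 genes. Pcsk2 encodes prohormone convertase 2, which acts late in the granule. It had 353, 381 and 349 counts in control replicates 1 to 3 and 575, 470 and 467 counts in TRH replicates 1 to 3. These were 8.09, 8.33 and 7.43 CPM against 11.1, 10.3 and 10.5 CPM. Every TRH library lay above every control, on the TPM scale as well, where controls reached at most 2.95 and TRH libraries at least 3.28 TPM.

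Mean Pcsk2 levels (± SD, n = 3 each) were 7.95 ± 0.468 CPM in control and 10.6 ± 0.389 CPM in TRH libraries. The fitted log2 fold change of 0.42 (SE 0.13, 95% interval 0.13 to 0.71) is a fold of 1.34. Its unadjusted p in edgeR was 0.00978 and its adjusted p 0.410. Of all genes tested, 2.36% had a smaller p. DESeq2 gave an adjusted p of 0.166. The log2 fold change stayed between 0.39 and 0.46 when single libraries were left out. Pcsk2 (4659 bases) belongs to the longest of the 5 length groups, whose median log2 fold change was -0.11, and with length offsets its own value was 0.54 (unadjusted p = 0.0054). On the TPM scale limma gave 0.27 on log2(TPM + 1) (unadjusted p = 0.0666) and 0.34 on log2(TPM + 0.1) (unadjusted p = 0.0832).

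The Pcsk2 window, chr3:151333688-151333987 (plus strand), is shown for comparison with those of Scg2 and Vgf. It holds the core CGTCA at position -57 but neither the full element nor the AP-1 letters. A link between these letters and the change of Pcsk2 was not tested.
Pcsk2: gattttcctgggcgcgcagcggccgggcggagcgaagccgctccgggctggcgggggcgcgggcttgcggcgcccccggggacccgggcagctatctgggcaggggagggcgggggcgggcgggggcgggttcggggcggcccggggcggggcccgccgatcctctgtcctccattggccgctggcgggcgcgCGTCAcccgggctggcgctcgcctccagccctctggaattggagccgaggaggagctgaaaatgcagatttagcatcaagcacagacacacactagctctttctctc

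Pcsk1, which encodes the convertase that cuts prohormones earlier in the pathway, was the scarcest member. It was counted 35, 38 and 70 times in control replicates 1 to 3 and 60, 50 and 59 times in TRH replicates 1 to 3. Control replicate 3, which was also the highest for Chga, exceeded every TRH library, and the other 2 controls lay below all of them. The fit gave a log2 fold change of 0.20 with SE 0.32 and a 95% interval from -0.55 to 0.94, which ends just short of a 2-fold change (edgeR adjusted p = 0.841). Without control replicate 3 the interval reached 2.45-fold, without TRH replicate 1 2.24-fold and without TRH replicate 2 2.25-fold. Without control replicate 3 the value was 0.56 (unadjusted p = 0.113), and without control replicate 1 it was 0.04. With length offsets the value was 0.35 (unadjusted p in edgeR 0.328), and the interval reached 2.15-fold. The Poisson intervals of control replicate 1 (24.4 to 48.7 counts) and control replicate 3 (54.6 to 88.4 counts) did not meet.

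Pcsk1 transcripts were outnumbered by those of Pcsk2 in every library. The ratio of Pcsk1 to Pcsk2 in TPM was 0.0915, 0.0921 and 0.185 in control replicates 1 to 3. It was 0.0963, 0.0982 and 0.117 in TRH replicates 1 to 3. All TRH values lay within the range of the controls, and only control replicate 3 departed from the rest.

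Pam was the steadiest member. Its values were 1357, 1324 and 1298 CPM in control replicates 1 to 3 and 1406, 1324 and 1276 CPM in TRH replicates 1 to 3. The highest and lowest of the 6 were both TRH libraries, so the groups overlapped fully. The highest library held 1.10 times the CPM of the lowest, and only 5.24% of 191 genes of like abundance had a smaller ratio. The fitted log2 fold change was 0.01 with SE 0.08 (edgeR adjusted p = 0.979). Its 95% interval, from -0.18 to 0.20, spans 0.884 to 1.15 times the control level. With length offsets the value was 0.14 (unadjusted p = 0.171), and the length group of Pam (5038 bases), which spans 3866 to 29464 bases, had a median of -0.11. On log2(TPM + 1) it was -0.06.

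The precision differed between members. For 3 of the 7 genes, Scg2, Vgf and Pam, the whole 95% interval stayed under a 1.5-fold change in either direction, beside 54.6% of all genes. For 6 of the 7, all but Chga, it stayed under a 2-fold change, beside 82%. With single libraries left out, 5 or 6 genes stayed under 2-fold, the exception besides Chga being Pcsk1, and 2 to 4 stayed under 1.5-fold. The interval of Pcsk1 also passed 2-fold with length offsets (2.15-fold) and, barely, with a replicate block. It reached 2.93-fold without control replicate 3 and TRH replicate 2 together, an alternative chosen after seeing the data. No adjustment over genes was made to these intervals.

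The mean profile of the 7 genes (the average of their log2 CPM deviations) was 0.07, -0.19 and 0.14 in control replicates 1 to 3 and -0.04, 0.10 and -0.07 in TRH replicates 1 to 3. It followed no group, and its highs in control replicate 3 and TRH replicate 2 are those of Chga. Of 11773 other genes with a mean log2 CPM of at least 1, the closest was ENSRNOG00000060320, with a root mean square difference of 0.036 over the 6 libraries. Next came ENSRNOG00000001353 at 0.037. Both were picked from a large number of genes for their likeness alone.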

How the data were processed

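GH3 messenger RNA was sequenced in 6 libraries. The authors deposited raw counts per Ensembl gene, and a further deposited table adds gene length and TPM (count per length, rescaled to a total of 1000000 per library). HISAT2 and bedtools appear in the submitters' processing notes. The sources used here do not give the build, annotation, strand setting or counting rule, so reads shared with overlapping genes cannot be judged.

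Members were the 7 identifiers of a list made for this work. The members, lists and tests were chosen with earlier results of these data known. RefSeq (GRCr8) held an Ensembl identifier in 0 of 47357 rows, so the symbols were not checked against it. Each deposited length was shorter than the RefSeq gene of that symbol. That span covers the whole gene with its introns, so the comparison does not check the symbols.

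Counts were fitted with edgeR 4.0.16 (R 4.3.3; filterByExpr, TMM, quasi-likelihood F-test, no replicate block, Benjamini-Hochberg over 14050 genes, threshold 0.05). Standard errors came from the coefficient and its F value, and intervals are 95%. Several of the fits were also run on simulated counts. These held no trend with gene length and no outlying library, so that run does not bear on either feature. Alternatives were DESeq2 1.42.0 (Wald test, or its size factors in edgeR), limma 3.58.1 (voom, log2(TPM + 1), log2(TPM + 0.1)), other filters, a replicate block, length offsets (loess, span 0.5) and left-out libraries. All 7 members were described in every library, and the 2 genes closest in profile were named by rule. Libraries of a group differed by more than sampling noise in every pair (smallest chi-square per degree of freedom 13.7). Replicate numbers were not treated as pairs, since the labels tie them to nothing and deviations of equal-numbered libraries correlated at 0.29, -0.26 and -0.12.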

Additional observations from a re-analysis of the deposited data

How the results depend on the processing

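None of the 7 genes passed the adjusted threshold in any of 17 alternatives per gene (119 values). The lowest adjusted p was 0.166, for Pcsk2 in DESeq2's test. Signs turned in 5 values: Pam was -0.0588 with limma on log2(TPM + 1), -0.0590 with a pseudocount of 0.1 and -0.0121 without TRH replicate 1. Chga was 0.0550 without control replicate 3, and Pcsk1 was -0.0411 when control replicate 1 and TRH replicate 3 were both left out. The cause was not tested. With single libraries left out Chga ran from -1.13 to 0.0550 and Pam from -0.0121 to 0.0336.

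Over all genes, DESeq2's Wald test called 106 against 0 in edgeR, edgeR called 1 when control replicate 1 and TRH replicate 3 were both left out, and leaving out single libraries gave 0 to 1. Genes at an unadjusted p under 0.05 numbered 769 to 1786 with single libraries left out, against 1263, and 548 without control replicate 3 and TRH replicate 2 together, an alternative chosen after seeing the data. Members at that p, 3 in the fit reported, numbered 1 to 3 with single libraries left out. In both limma fits on TPM the number was 1, Chgb. Without control replicate 3 and TRH replicate 2 together, where 4 libraries remained, it was 0. In the fit with a replicate block it was 1, Pcsk2, at an unadjusted p of 0.0323, and edgeR called 0 genes. Counts were lowest for Pcsk1 (35 to 70) and Chga (57 to 236).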
